A study of Mus musculus with 2 samples.

Results

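The laminin and integrin genes are 37 of the 21938 protein-coding genes of the GENCODE M21 mouse annotation, taken by symbol: 11 laminin chain genes and 26 integrin subunit genes. Their chromatin was described in DNase-seq of mouse urinary bladder, in which DNase I cuts DNA not wrapped in nucleosomes, so that dense cuts mark accessible regions. The tissue came from female adult B6CASTF1/J mice, the first-generation cross of C57BL/6J and CAST/EiJ, aged 18 to 20 months. The series holds 1 group of 2 libraries, labelled replicate 1 and replicate 2, each from its own tissue sample and both under 1 donor record. The labels give no treatment and no second genotype. Whether the samples came from separate animals is not stated, so the spread between the libraries may be technical. Each value is from whole bladder tissue, in which a region open in fewer cells and a region less open in each cell cannot be told apart.

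Laminins are cross-shaped proteins of 1 alpha, 1 beta and 1 gamma chain that polymerise into the sheet of the basement membrane. Integrins are receptors of 1 alpha and 1 beta subunit that bind laminins, collagens, fibronectin or other cells on the outside and the actin or keratin skeleton on the inside. In the bladder, basement membranes lie under the urothelium and around vessels and smooth muscle cells. Epithelial laminin with the alpha3 and beta3 chains and the alpha6 beta4 integrin hold basal epithelial cells to the basement membrane at hemidesmosomes, and the beta2 and beta7 integrins belong to leukocytes.

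For replicate 1 the list comprised 84591 peaks with a median signal of 0.819, and for replicate 2 it comprised 112174 with a median of 0.760. Signal was a whole multiple of 0.00853 in replicate 1 and of 0.00884 in replicate 2, and the median peak held 96 and 86 such steps. Most marker genes for cell types of the organ had a promoter peak in both libraries, as did 64.2% of all protein-coding genes. These were all 6 urothelium markers, 5 of 6 smooth muscle markers, 5 of 5 fibroblast markers and 4 of 5 endothelium markers. Their median promoter signal was 2.08 in replicate 1 and 2.03 in replicate 2 for urothelium, and 2.07 and 1.25 for fibroblasts. It was 0.844 and 1.01 for smooth muscle and 0.780 and 0.897 for endothelium, beside 3.33 and 3.61 over all genes open in both. Among markers of cells that blood brings in or that the organ lacks, the counts were 0 of 6 for leukocytes, 1 of 4 for platelets and 1 of 4 for hepatocytes. The open platelet marker was Itga2b, itself one of the integrin genes described here, and it was open at starts of non-coding transcripts alone. Of the leukocyte markers, Lyz2 was open in replicate 1 alone, and Spi1 and Cd3e in replicate 2 alone.

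Most laminin and integrin genes had an open promoter, and 6 of the 7 without one in both libraries were leukocyte integrins. A promoter peak was a deposited peak that overlapped the stretch from 1 kb before to 1 kb after any annotated transcription start of the gene. Such a peak stood at 30 of the 37 genes in replicate 1, beside 65.2% of all protein-coding genes, and at 31 in replicate 2, beside 67.6%. In both libraries it was 30 of 37, or 81.1%, beside 64.2% of all genes. The 30 were all 11 laminin chains, 17 of 18 integrins outside the leukocyte group and 2 of 8 leukocyte integrins. Itga7, Itgad, Itgae, Itgam, Itgax and Itgb2 had no promoter peak in either library, and Itgb7 had one in replicate 2 alone. No laminin or integrin gene had one in replicate 1 alone, beside 1.03% of all genes.

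The open promoters were weaker than most. The highest peak signal at the promoter, taken per gene and then as the median over the 30 genes, was 1.67 in replicate 1 and 1.79 in replicate 2, a mean of 1.73 ± 0.0835 (SD, n = 2). Over all 14085 genes with a promoter peak in both libraries the medians were 3.33 and 3.61, a mean of 3.47 ± 0.204. Only 4 of the 30 genes, Itga2b, Itgav, Itgb1 and Lamc1, stood above the middle rank of all such genes. Across the 30 genes, log2 promoter signal in replicate 2 followed that in replicate 1 with a Pearson r of 0.877 and a Spearman rho of 0.824. Over all 14085 genes these were 0.963 and 0.965. The genes of 1 library share its depth and scaling, so these values describe the lists and carry no test.

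**Figure D1:**
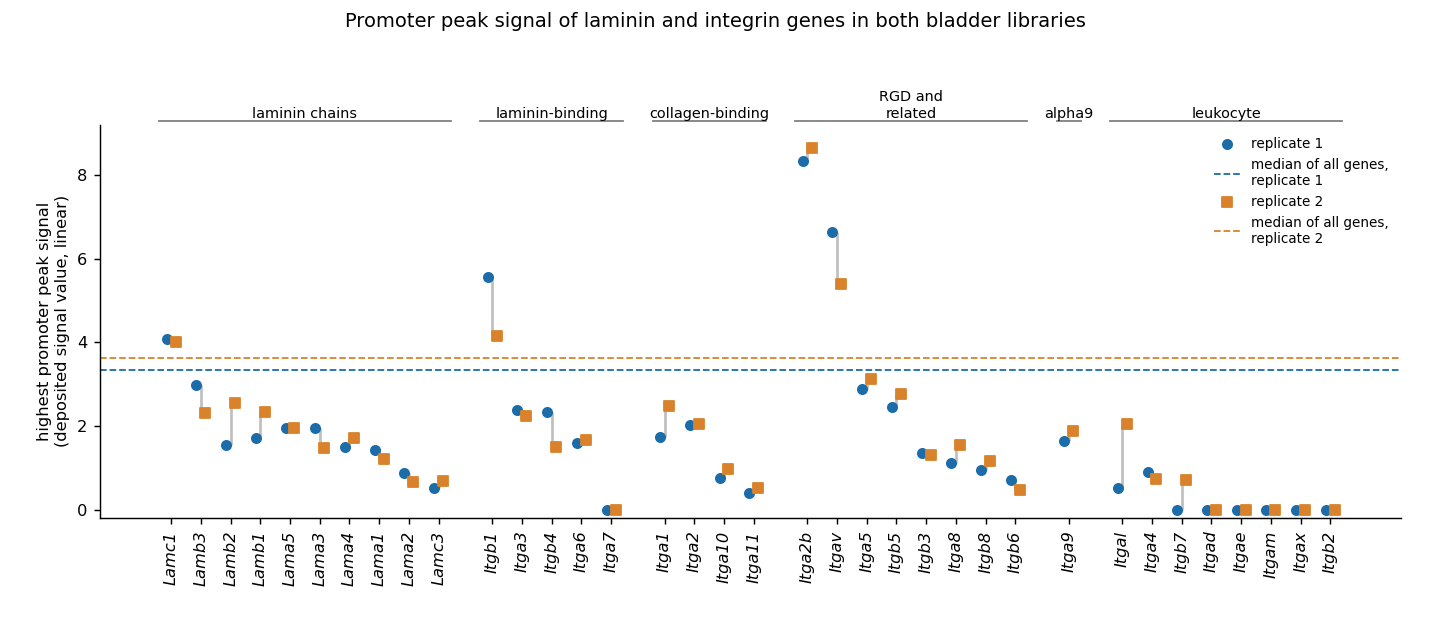
Highest deposited peak signal (linear scale) within 1 kb of a transcription start, for each gene described here in replicate 1 (circles) and replicate 2 (squares), with a line joining both. Dashed lines are the medians over all genes with a promoter peak in both libraries, 3.33 and 3.61; Itga2b, Itgav, Itgb1 and Lamc1 lie above them, and genes at 0 have no promoter peak.

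The laminin chains were open at every gene, with a wide range of signal. Lamc1, on chromosome 1 from 153218922 to 153332786 on the minus strand, encodes gamma1, the gamma chain that most laminin trimers share. Its promoter signal was 4.08 in replicate 1 and 4.00 in replicate 2 (4.04 ± 0.0576, SD, n = 2), with 10 and 9 footprints, which are short protected stretches inside open regions, at the promoter. Its locus, the gene with 10 kb on either side, held 11 and 7 peaks. Locus peaks, here and below, include any at promoters of other genes within that stretch. Lamc1 had the strongest laminin promoter in both libraries.

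Lamb3, on chromosome 1 from 193207699 to 193343878, encodes beta3, the beta chain of the epithelial hemidesmosome laminin. Its promoter signal was 2.97 and 2.32 in the replicates (2.64 ± 0.461), with 6 and 13 promoter footprints and 12 and 15 locus peaks. The strongest promoter peak was not the same one in the 2 libraries. In replicate 1 its midpoint lay at -592.5 bp from a coding start at 193301993, and the same region held 2.25 in replicate 2. In replicate 2 it lay at a start of a non-coding transcript within 1 kb of a start of G0s2, a neighbouring gene, at 2.32, where replicate 1 had 2.37. A further peak sat on the coding start itself, at 2.05 in replicate 1 and 1.95 in replicate 2.

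Lamb2, on chromosome 9 from 108479736 to 108490530, encodes beta2, a chain of the synaptic, vascular and kidney basement membranes. Its promoter signal was 1.53 in replicate 1 and 2.54 in replicate 2 (2.04 ± 0.714), with 3 and 5 footprints and 3 and 8 locus peaks. Both values came from overlapping peaks centred upstream, at -845.5 bp from the coding start in replicate 1 and at -735.5 bp in replicate 2. A peak on the start itself, of 1.12, was called in replicate 2 alone. When promoters were drawn as 500 bp on either side, Lamb2 kept its promoter peak in replicate 2 only.

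The other laminin chains had a lower mean promoter signal than these. Lamb1, the beta chain of most basement membranes, had 1.71 in replicate 1 and 2.33 in replicate 2, and Lama5, a broadly used alpha chain, had 1.95 and 1.96. Lama3, the alpha chain of the hemidesmosome laminin, had 1.94 and 1.48 and was open at both of its annotated coding starts, the upstream one at 1.94 and 1.36 and the internal one at 1.77 and 1.48. Like Lamb3, it had the higher promoter signal in replicate 1. Lama4, an alpha chain of vessel and muscle basement membranes, had 1.49 and 1.71, and Lama1, an alpha chain known from the early embryo, had 1.43 and 1.21. Lama2, the alpha chain of muscle basement membranes, had 0.87 and 0.66, and Lamc3 had 0.52 and 0.67. The last 2 were the weakest laminin promoters in both libraries.

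Among the laminin-binding integrins 4 of 5 subunits were open. Itgb1, on chromosome 8 from 128685654 to 128733200, encodes beta1, the partner of the most alpha subunits. Its promoter signal was 5.56 and 4.15 in the replicates (4.86 ± 0.994), from a peak on the start in each library, with 5 and 6 footprints and 3 and 6 locus peaks. Itga3, on chromosome 11 from 95044474 to 95076801, encodes the alpha subunit of an epithelial laminin receptor, and had 2.38 and 2.24 (2.31 ± 0.0951), with 7 and 7 footprints and 6 and 9 locus peaks. Itgb4, on chromosome 11 from 115974709 to 116008412, encodes beta4 of the hemidesmosome, and had 2.34 and 1.50 (1.92 ± 0.590), with 6 and 7 footprints and 6 and 10 locus peaks. Itga6, its alpha partner, had 1.59 and 1.66. Itga7, a muscle receptor subunit for laminin, lacked a promoter peak in both libraries and had no stretch with a cut-rate false discovery rate under 0.05 at its promoter, although its promoter is rich in CpG. The Itga7 locus held 0 peaks in replicate 1 and 1 intronic peak of 0.86 in replicate 2.

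The promoter of Itgb1, the strongest of the laminin-binding group, is shown here, and regions with AP-1 and TEAD matches further on. The run is the reference sequence of C57BL/6J mice in RefSeq, GRCm38.p6, on the strand of the gene, outside annotated untranslated exons. Capitals mark bases inside a deposited footprint of at least 1 library. It is chr8:128685541-128685653 on the plus strand, the part of its promoter peak before the start, with 32 footprint bases, 22 of them in both.
Itgb1 promoter: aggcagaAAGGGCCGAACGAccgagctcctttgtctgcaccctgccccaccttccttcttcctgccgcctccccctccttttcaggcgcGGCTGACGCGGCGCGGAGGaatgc
The run held 1 TEAD match, GGAATG, at bases 107 to 112, with 2 of its bases inside a footprint, and no AP-1, SP or KLF match. The rest of the peak, past the start and not shown, held 4 matches of SP (GGGCGG), each overlapping a footprint in both libraries.

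All 4 collagen-binding alpha subunits had a promoter peak in both libraries. Itga1, on chromosome 13 from 114953096 to 115101964, had 1.74 and 2.47 in the replicates (2.11 ± 0.520), with 6 and 5 promoter footprints and 7 and 6 locus peaks. Its promoter peak also lay within 1 kb of a start of the annotated gene Gm49395, and Itga1 had none once peaks near a start of another gene were set aside. Itga2, its neighbour on chromosome 13 from 114833081 to 114932100, is a collagen receptor of epithelia and platelets, and had 2.03 and 2.04 (2.04 ± 0.00837), with 6 and 7 footprints and 5 and 10 locus peaks. Itga10, on chromosome 3 from 96645584 to 96664519, is known from cartilage, and had 0.75 and 0.97 (0.86 ± 0.157), with 1 and 1 footprints and 6 and 7 locus peaks. Itga11, a receptor for fibrillar collagen on fibroblasts, had 0.40 and 0.52, the lowest value among the genes open in both libraries in replicate 1 and the lowest but for Itgb6 in replicate 2. Its strongest peaks lay 805 bp and 908.5 bp past a start, and a window of 500 bp on either side left a peak in replicate 2 alone.

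The subunits that recognise the peptide Arg-Gly-Asp, and those close to them, held both the strongest and some of the weakest promoters. Itga2b, on chromosome 11 from 102453297 to 102470122, encodes the alpha subunit of the platelet fibrinogen receptor and had 8.33 and 8.63 (8.48 ± 0.214), with 20 and 24 promoter footprints and 6 and 6 locus peaks. These peaks lay at starts of non-coding transcripts inside the gene, the strongest at chromosome 11, 102467041 to 102467240 in replicate 1 and 102467041 to 102467380 in replicate 2. At starts of its protein-coding transcripts Itga2b had no peak in either library, and the count of genes open in both was 29 when only such starts were used. Among the other platelet markers, Gp1ba and Gp9 had no promoter peak and Pf4 had 0.41 in replicate 2 alone.

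Itgav, on chromosome 2 from 83724397 to 83806916, encodes alphav, which pairs with the products of Itgb1, Itgb3, Itgb5, Itgb6 and Itgb8. Its promoter signal was 6.64 and 5.38 (6.01 ± 0.892), with 10 and 5 footprints and 8 and 9 locus peaks. Itga5, on chromosome 15 from 103344286 to 103366763, encodes the alpha subunit of the main fibronectin receptor and had 2.88 and 3.12 (3.0 ± 0.168), with 5 and 2 footprints and 4 and 10 locus peaks. All 5 partner promoters had lower signal than that of Itgav in both libraries. Itgb5, a vitronectin receptor subunit, had 2.45 and 2.77, and Itgb3, which also pairs with the product of Itga2b, had 1.36 and 1.30. Itgb8 and Itgb6, whose receptors release active TGF-beta, also had promoter peaks in both libraries. Itgb8 had 0.96 and 1.16, and Itgb6 had 0.72 and 0.47. The Itgb6 values came from different starts, an internal one at 60673711 in replicate 1 and the outermost one at 60722643 in replicate 2, both on chromosome 2. Itga8, a nephronectin receptor subunit of mesenchyme and smooth muscle, had 1.12 and 1.54. Itga9, on chromosome 9 from 118606690 to 118901003, a receptor subunit for tenascin and osteopontin, had 1.64 and 1.87 (1.76 ± 0.167), with 1 and 5 footprints and 11 and 13 locus peaks.

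The leukocyte integrins were mostly closed at their starts. Itgal, on chromosome 7 from 127296260 to 127335138, encodes alphaL of the lymphocyte receptor for ICAM proteins. Its promoter signal was 0.52 in replicate 1 and 2.04 in replicate 2 (1.28 ± 1.08), with 1 and 5 footprints and 2 and 4 locus peaks. The peak lay before an internal coding start at 127309518, and the outermost start had none. Itga4, on chromosome 2 from 79255426 to 79333123, encodes the alpha subunit that binds VCAM1 and MAdCAM1, and had 0.89 and 0.74 (0.81 ± 0.102), with 3 and 3 footprints and 3 and 4 locus peaks. Itgb7, on chromosome 15 from 102215995 to 102231944, encodes its gut-homing partner, and was closed at its starts in replicate 1, with a signal of 0.70 there in replicate 2, with 0 and 2 footprints and 2 and 5 locus peaks. Of the 37 genes, 1 was open in replicate 2 alone, beside 3.4% of all genes.

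Itgb2, on chromosome 10 from 77530252 to 77565708, encodes the beta subunit that Itgal, Itgam, Itgax and Itgad products share. It had no promoter peak and no promoter footprint, yet its locus held 7 peaks in replicate 1 and 8 in replicate 2, the most of any leukocyte integrin. An intronic peak at chromosome 10, 77544981 to 77545180, had 2.70 in replicate 1 and 3.08 in replicate 2, and a peak past the gene at 77566781 to 77566960 had 1.97 and 3.48. A further region, at -1.41 kb from the start, had 1.65 and 2.00, so that Itgb2 counted as open in both libraries when promoters were drawn as 2 kb on either side. Itgae, whose product binds E-cadherin on epithelial cells, had 2 and 6 locus peaks and no promoter peak. Of these, 1 and 2 lay outside promoters, and the rest lay at promoters of other genes. Itgam, Itgax and Itgad, the neighbouring alpha subunit genes of myeloid cells on chromosome 7, had 2 and 3, 0 and 1, and 2 and 3 locus peaks, all outside promoters. None of the 6 genes without a promoter peak had a stretch with a cut-rate false discovery rate under 0.05 at the promoter in either library. Such a stretch stood at 2.37% of all closed promoters in replicate 1 and at 2.46% in replicate 2.

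Base composition of the promoters went with openness, as it did over all genes. The measure was the highest ratio of observed to expected CpG dinucleotides over the starts of a gene. Of the 26 genes with a ratio of at least 0.5, 24 were open in both libraries, or 92.3%, beside 90.8% of all such genes. Of the 11 genes below 0.5, 6 were open, or 54.5%, beside 21.4% of all such genes. The open 6 with a low ratio were Itga2b, Itga10, Lama2, Lamb2, Lamb3 and Itgal, with ratios from 0.229 for Lamb3 to 0.379 for Lama2. For Itga2b the ratio of 0.236 belongs to coding starts without a peak. Its open peak region, at a non-coding start, had 0.715. The closed genes with CpG-rich promoters were Itga7 at 0.678 and Itgad at 0.664. The open promoter peaks had a median CpG ratio of 0.648 over 29 regions, beside 0.798 over 12668 regions of all genes.

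Away from promoters the loci were richer in peaks than the median gene. Peaks within 1 kb of a start of any protein-coding gene were set aside. The rest numbered 154 in replicate 1 and 223 in replicate 2. A locus held a median of 0.286 and 0.512 such peaks per 10 kb (0.399 ± 0.160, SD, n = 2), beside 0.197 and 0.328 over all genes (0.262 ± 0.0928). In each library 24 of the 37 loci lay above the all-gene median. At least 1 such peak was called in both libraries at 33 of 37 loci, or 89.2%, beside 57.7% of all genes. The loci are also long, with a median gene length of 64.4 kb beside 17.4 kb for all genes, which gives more room for a peak.

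Introns of the genes, which are long, held most of these peaks, and the same split was not counted over all genes. In replicate 1, 116 of 154 lay in introns, 28 in the flanks, 8 on coding exons and 2 on untranslated exons. In replicate 2 the counts were 165, 43, 11 and 4 of 223. Between the libraries 125 were shared, 81.2% of those in replicate 1 and 56.1% of those in replicate 2, beside 83.9% and 59.8% for all genes. A footprint of the same library overlapped 83.8% and 79.4% of them, beside 78.1% and 77.9%.

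Itgb5 had the most peaks of the 37 loci, 20 in replicate 1 and 24 in replicate 2. It also had the strongest peak outside promoters in replicate 2, though not in replicate 1. That peak, at chromosome 16, 33820861 to 33821060, at -8.70 kb from the start, had 2.52 in replicate 1 and 5.0 in replicate 2. A second one 121 kb past the start, just beyond the gene, had 2.51 and 4.53. Both had the higher value in replicate 2. Among the laminin genes, Lamb3 had an intronic peak of 3.25 in replicate 1 and 2.70 in replicate 2, and an intronic peak of Lama3 had 1.46 and 3.0. Locus peaks numbered 12 and 15 at Lamb3 and 8 and 10 at Lama3.

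In the laminin-binding group the strongest distal peak of replicate 2 lay in an intron of Itgb1, with 1.18 in replicate 1 and 2.50 in replicate 2. Itga6 had more of them, with a total of 14 and 16 locus peaks. An intronic peak 59.8 kb from its outermost annotated start had 2.25 and 1.71, and one at 67.3 kb had 1.28 and 2.09. That start, at 71745616, belongs to a non-coding transcript. The strongest promoter peak of Itga6 lay on a coding start at 71786929, which is nearer to both intronic peaks. Itgb4 had a peak on a coding exon at chromosome 11, 116004881 to 116005160 in replicate 1, with 2.06 there and 2.02 in replicate 2. In the collagen-binding group the highest was on an untranslated exon of Itga10, with 2.01 and 3.18, followed by an intron of Itga1, with 1.62 and 3.08. The Itga9 locus had a peak of 2.22 and 2.87 beyond its end, 302 kb from the start. Itgb6, with one of the weakest promoters, had 11 and 11 peaks outside promoters, led by intronic ones of 2.11 and 2.01 and of 1.76 and 2.26.

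**Figure D2:**
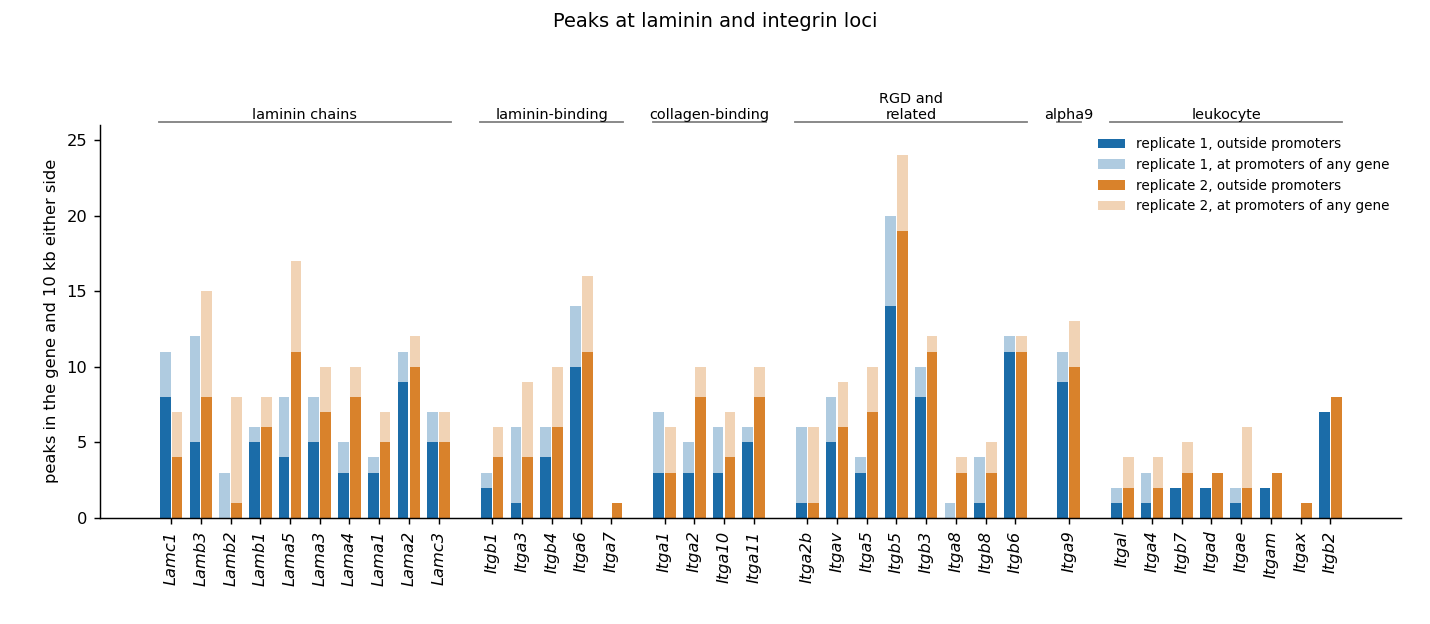
Number of deposited peaks in each gene described here with 10 kb on either side, for replicate 1 (blue) and replicate 2 (orange); dark parts are peaks outside promoters and light parts are peaks within 1 kb of a start of any protein-coding gene. Itgb5 has the most, 20 and 24, and Itga7 and Itgax have 0 and 1.

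**Figure D3:**
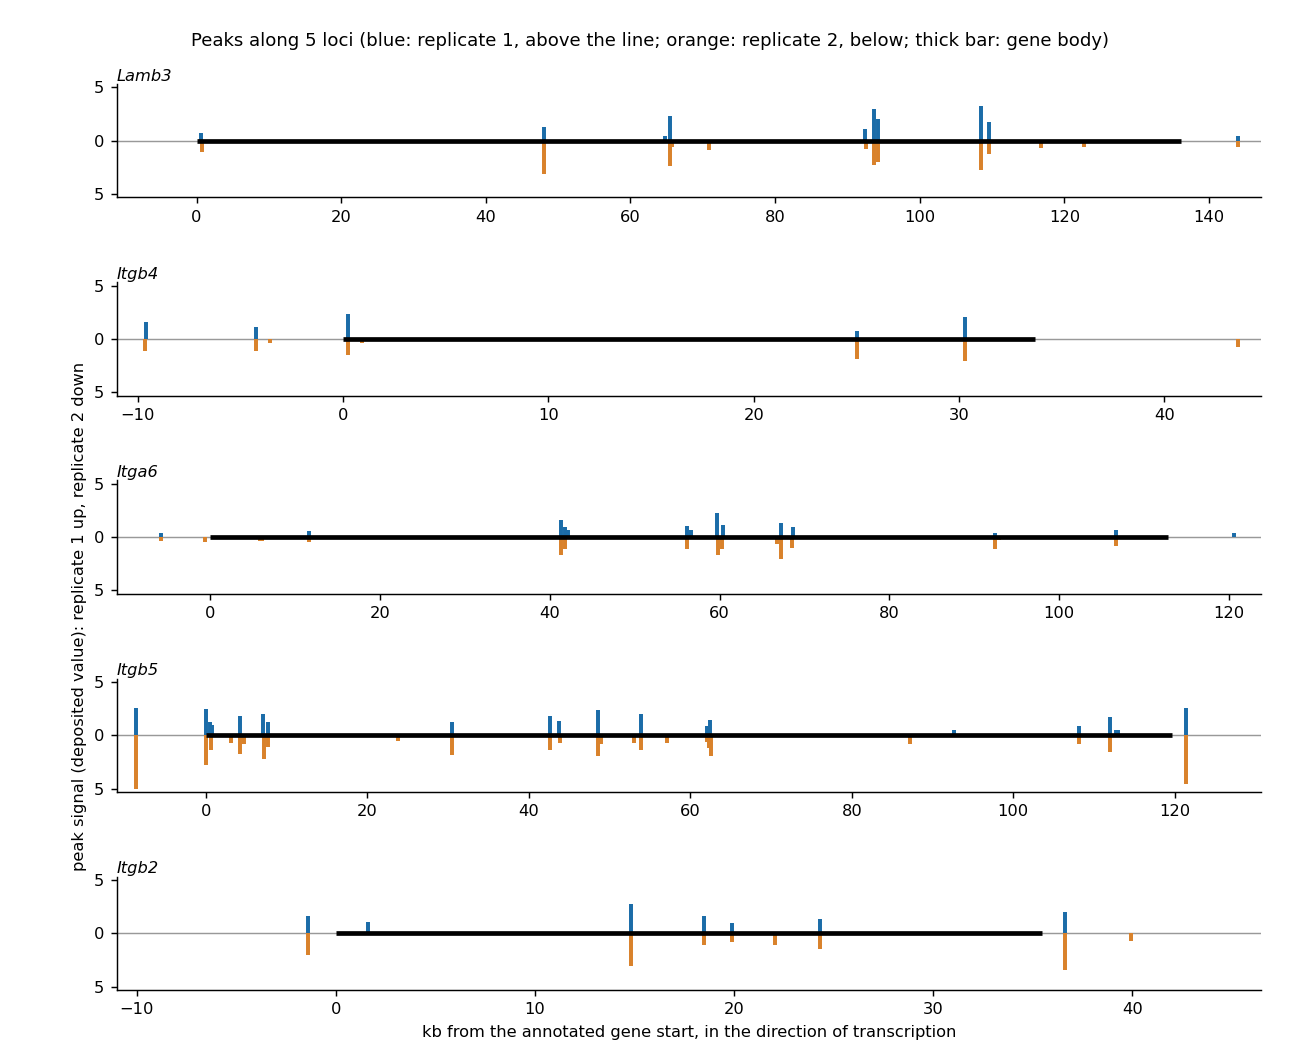
Position and deposited signal of peaks along 5 loci, by distance from the outermost annotated start in kb, with replicate 1 above and replicate 2 below the line and the gene body as a thick bar. Peaks at promoters of other genes are left out unless they also lie within 1 kb of a start of the gene shown. Lamb3 has such peaks, near a start of G0s2. Itgb5 shows a strong peak at each end of the gene, and Itgb2 has peaks in and around the gene but none at its start.

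Footprints followed the promoter peaks. A deposited footprint lay within 1 kb of a start in both libraries at 30 of the 37 genes, or 81.1%, beside 61.7% of all genes. The median number per open promoter was 5 in each library, beside 6 in each over all genes. Itga2b had 20 and 24, the most. Itgb5 had 12 and 17, Lamc1 10 and 9 and Itga6 10 and 9.

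Short motifs were counted on both strands in the strongest promoter peak of each gene, where the libraries' peaks overlapped, and in the shared peaks outside promoters. The promoter peaks were 29 for the laminin and integrin genes and 12668 for all genes. AP-1 (TGANTCA), the site of the Fos and Jun family, was found in 13.8% of them, beside 5.19% of all, and TEAD (GGAATG), the site of the factors that act with YAP, in 24.1%, beside 9.59%. ETS (CCGGAAG) was found in 6.90%, beside 17.3%, and the motif of the GATA factors, spelled AGATAA, in 0 of 29, beside 3.07%. RUNX (TGTGGT) was found in 6.90%, beside 9.51%. SP (GGGCGG) was found in 72.4%, beside 67.5%, and KLF (GGGNGTG), which can overlap SP, in 48.3%, beside 35.4%. With 29 regions, 1 region is 3.45%, and no test was made. Median region length was 260 bp for these genes and 240 bp for all.

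AP-1 matches were in the promoter peaks of Lamb3, Itgb4 and Itga5, among others. TEAD matches were in those of Lamb3, Itgb4, Itga5, Itgb1, Lamb2, Itga10 and Itgb8. Both stood together in Lamb3, Itgb4 and Itga5, which is 10.3% of 29 beside 0.789% of 12668. In the shared peaks outside promoters, 125 for these genes and 29876 for all, AP-1 was found in 28.8%, beside 20.8%. TEAD was found in 20.0%, beside 14.9%, GATA in 16.0%, beside 10.5%, and AP-1 with TEAD in 7.20%, beside 3.44%. Of the 43 AP-1 matches outside promoters, 14 overlapped a footprint in at least 1 library and 6 in both. At promoters, 3 of the 5 AP-1 matches did so in at least 1 library and 1 in both. The same shares in the peaks of all genes were not counted, so these counts are not read as particular to the laminin and integrin genes.

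**Figure D4:**
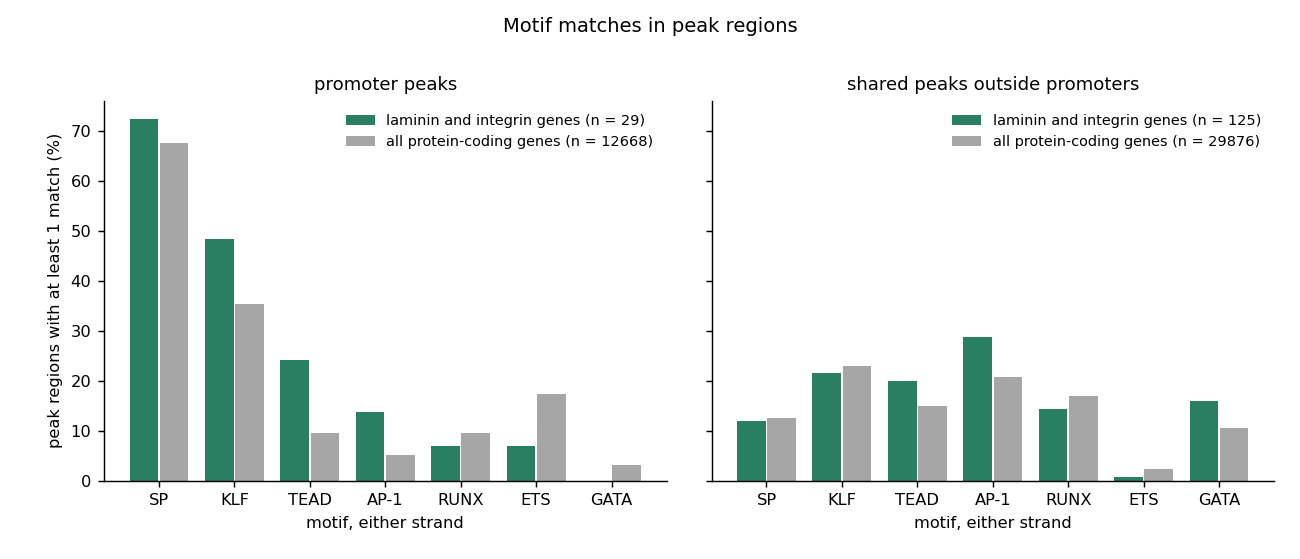
Percent of peak regions with at least 1 match of each motif on either strand, at promoters (left, 29 and 12668 regions) and in shared peaks outside promoters (right, 125 and 29876 regions), for the laminin and integrin genes (green) and all protein-coding genes (grey). At promoters TEAD stands at 24.1% beside 9.59% and ETS at 6.90% beside 17.3%.

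Regions that held both motifs are shown as sequence, from the same reference and with capitals for footprint bases of at least 1 library. The Lamb3 run is the whole strongest promoter peak of replicate 1, chr1:193301301-193301500 on the plus strand. The Itgb4 run is 30 bases of its promoter peak, chr11:115974985-115975014 on the plus strand. The Itgav run is its strongest peak outside promoters in replicate 1, chr2:83714861-83715020 on the plus strand, at -9.46 kb from the start, which had 2.96 in replicate 1 and 3.24 in replicate 2.
Lamb3 promoter: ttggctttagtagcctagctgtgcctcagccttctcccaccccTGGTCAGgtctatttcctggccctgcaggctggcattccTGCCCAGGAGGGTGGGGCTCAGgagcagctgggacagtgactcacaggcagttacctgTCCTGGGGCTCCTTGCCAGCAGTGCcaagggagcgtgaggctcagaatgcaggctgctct
Itgb4 site: CGCAGgaatgcagtcCGCCTGActcaccag
Itgav upstream peak: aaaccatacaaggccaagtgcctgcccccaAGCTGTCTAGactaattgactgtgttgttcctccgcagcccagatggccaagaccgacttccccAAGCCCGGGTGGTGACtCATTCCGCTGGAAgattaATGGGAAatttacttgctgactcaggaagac
In Lamb3 the AP-1 match is at bases 120 to 126 and the TEAD match, on the opposite strand, at 77 to 82, both between footprints. In Itgb4 TEAD is at bases 5 to 10, with 1 base inside a footprint of replicate 1 alone. AP-1 is at 20 to 26, with 3 bases inside a footprint of replicate 2 alone. In Itgav the first AP-1 match, at bases 107 to 113, runs into a TEAD match on the opposite strand at 112 to 117. Of the 7 bases of this AP-1 match, 6 lay inside footprint bases, as did all 6 of the TEAD match. Its second AP-1 match, at bases 147 to 153, lies outside. A match is a string of letters and does not show that a factor was bound.

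Between the replicates, the summed peak signal of a locus was compared as a log2 ratio of replicate 2 over replicate 1. The sum took in every peak of the locus, also those at promoters of other genes. From each ratio the median of all loci, 0.28, was taken off. Of the 35 loci with a peak in both libraries, 15 lay below the median and 20 above it, beside 50% of all loci below. Past a factor of 2 lay 2 loci, beside 4.72% of all. Both were higher in replicate 2, beside 4.04% of all, and 0 were lower, beside 0.679%. Itgal, with 2 peaks in replicate 1 and 4 in replicate 2, was at 1.43, and Itga8, with 1 and 4, was at 1.28. Of the loci with at least 3 peaks in each library, 0 of 29 passed a factor of 2, beside 0.955% of all such loci. With 1 library on each side these differences have no test.

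By role, the leukocyte loci lay on 1 side of the median and the laminin-binding loci on the other. All 7 leukocyte integrin loci with a ratio lay above the median, beside 50% of all loci. They ranged from 0.02 for Itgb2 to 1.43 for Itgal. Their median of 0.58 was the value of Itgae, whose sum included peaks at promoters of other genes. This grouping was chosen after values were known. In the same libraries, of the 4 leukocyte marker loci with a ratio 2 lay above and 2 below, and the part of leukocytes in the result was not tested. The count depended on the width of the locus: with 50 kb on either side it was 4 of 8, and for the gene alone it was 5 of 7. With promoter peaks left out, or with peaks counted rather than their signal summed, it was 6 of 7, and among loci with at least 3 peaks in each library it was 2 of 2. The 4 laminin-binding loci with a ratio lay below, but close to it, from -0.11 for Itgb1 to -0.01 for Itga3. Laminin chains ranged from -0.45 for Lamc1 to 0.75 for Lama4, with 4 below and 7 above.

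**Figure D5:**
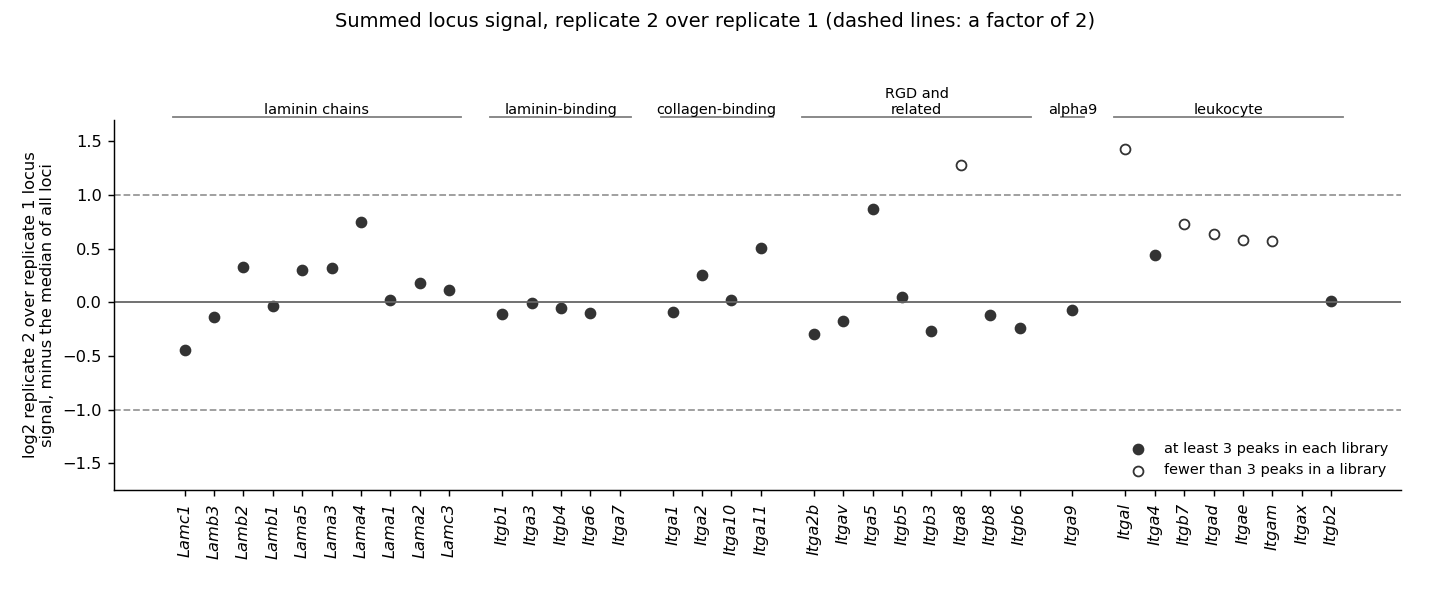
Log2 ratio of summed locus signal, replicate 2 over replicate 1, minus the median of all loci, for each gene described here with a peak in both libraries; open circles have fewer than 3 peaks in a library and dashed lines mark a factor of 2. Itgal at 1.43 and Itga8 at 1.28 lie past the line, both as open circles.

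At the promoters, 17 of 30 genes lay below the median ratio of all promoters, which was 0.07, beside 50% of all. Only Itgal passed a factor of 2, at 1.90 after centring, beside 0.88% of all promoters.

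Partners of laminins and integrins were described from lists by function, beside the same 64.2% of all genes. Of 14 basement membrane partners, such as type IV collagen, nidogen and perlecan genes, all 14 had a promoter peak in both libraries. Neighbouring genes among them shared values, Col4a1 with Col4a2 at 1.53 and 1.65, and Col4a3 with Col4a4 at 0.699 and 0.495. The 14 genes therefore stand for fewer separate promoters. The strongest were Dag1, for the laminin receptor dystroglycan, with 10.3 and 12.1 in the replicates, Hspg2, for perlecan, with 6.05 and 6.98, and Agrn, for agrin, with 3.97 and 3.24. Of 20 genes listed as integrin adaptors, 18 were open in both. Vcl, for vinculin, had the highest mean, with 11.2 and 9.18. Itgb1bp1, which binds the beta1 tail, had 7.51 and 8.55, and Lims1, a partner of integrin-linked kinase, had 6.64 and 9.42. Tln2 and Itgb1bp2, a talin and a muscle protein, had no promoter peak in either library. The median promoter signal of the open adaptors was 3.89 and 4.34, higher than that of the open laminin and integrin genes in both libraries.

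Of 7 hemidesmosome partners, 4 were open in both libraries. Plec, for plectin, had 4.53 and 4.43, Cd151, for a tetraspanin that binds laminin receptors, had 4.20 and 4.31, and Dst, for dystonin, had 2.43 and 2.76. Col17a1 and Col7a1, collagens of the skin hemidesmosome and its anchoring fibrils, and Krt14, a basal keratin, had none in either. Of 12 ligand genes, 8 were open in both. Tgfb1, for the latent growth factor that alphav integrins release, had 3.51 and 3.15, Cdh1, for the E-cadherin that the Itgae product binds, had 3.41 and 3.06, and Fn1, for fibronectin, had 3.33 and 2.49. Spp1, for osteopontin, and Icam2 had none in either library, and Madcam1 and Vtn had one in replicate 2 alone.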

How the data were processed

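DNase-seq was analysed in 2 bladder libraries of 1 group, from peak lists, footprints and cut-rate stretches that the authors deposited per library on mm10. The aligner and peak caller were not given in the sources used here. Within a library, 100% of the signal values that the authors deposited were whole multiples of a single step (tolerance 0.02). What the step was scaled to, and the total depth, are unknown. Cut-rate stretches carry deposited false discovery rates, read as a p-value and all under 0.05, and every footprint carries 1 deposited value.

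Genes came from GENCODE M21 (21938 protein-coding genes, 93513 start positions over all transcripts), and sequence from GRCm38.p6, the assembly of mm10. The longer peak list was used. Peaks counted when they overlapped a window by 1 bp, promoter signal was the highest of a gene's promoter peaks, and locus ratios were centred on all loci. Called meant past a factor of 2. All values are descriptions: with 1 group no test was made. The steps were tested on simulated peaks and planted motifs. Alternatives are given below, of which those for the leukocyte loci were added after values were seen. Members, role groups and lists were chosen with earlier results of these data known. Named genes were the 3 strongest promoters per role, genes open in 1 library, closed genes with 5 or more peaks in each library, and the strongest distal peak per role; in partner lists the 3 strongest and those without a promoter peak. Counts and medians cover all 37 genes, of which 1 is not reported here by itself, and some sequences are not reported here. Other genes were picked with their values in view. Work was done in Python 3.11.15 with numpy 2.4.6, pandas 2.3.3, pysam 0.24.0 and matplotlib 3.10.9.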

Additional observations from a re-analysis of the deposited data

How the results depend on the processing

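Counts of open genes in both libraries were 23 to 31 over the alternatives. Of the leukocyte integrins, 1 was open in both with the shorter peak list and 0 among the 42295 strongest peaks of each library, a smaller set by construction. The median promoter signal became 1.85 with 2 kb promoters, 1.91 with the shorter list and 1.99 among the strongest peaks, and the last 2 sets leave out weak peaks. The median density outside promoters became 0.698 with promoter peaks kept and 0.148 among the strongest peaks. Without centring, 2 member loci lay below 0, since the median shift of 0.28 stays in. Leukocyte loci above the median numbered 4 with 50 kb flanks, 5 without flanks and 2 with at least 3 peaks in each library, where 2 such loci remain. The centred log2 locus ratio of Itgal became -0.093 with 50 kb flanks, and the cause was not tested.

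Leaving out either library gave 30 and 31 open genes, 11 and 11 laminins, 17 and 17 other integrins, 2 and 3 leukocyte integrins, median signals of 1.67 and 1.71, densities of 0.286 and 0.512, and 30 and 31 genes with a promoter footprint. With the shorter list Itga10, Itga11, Itgal, Itgb6 and Lamc3 were no longer open in both. Weak peaks such as these limit the calls, since the depth behind them is unknown. No paired analysis was possible because the series has 1 group.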
